A study of Mus musculus with 10 samples.

Results

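Heart muscle genes were examined in RNA sequencing libraries of mouse liver. The 10 genes, Actc1, Myh6, Myl2, Myl3, Myl7, Tnnt2, Tnni3, Ttn, Mb and Csrp3, were picked by symbol from the 55401 genes of the table. They were chosen on measured values of these same libraries: transcripts of the heart were seen in 2 of the 10 libraries, NIKflox 2 and NIKflox 4. Their levels are therefore given as a description, and calls that a test made on them are counts from which nothing is read. The data go against that description for Csrp3, which had counts in all 10 libraries, and for Myl7, which was at 0 in NIKflox 2. The other 8 genes were each higher in NIKflox 2 and in NIKflox 4 than in any other library.

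The libraries fall into 5 labelled NIKflox and 5 labelled NIKhKO, written NIKF/F and NIKHKO in the design text. NIK is the kinase encoded by Map3k14, and the study's title concerns NIK of the liver. Both genotypes had been on 1 diet, the Lieber-DeCarli liquid diet (5% ethanol, 4 weeks), so no library comes from a mouse without ethanol. The labels give no age, sex, strain or Cre driver, and do not tie each library to a mouse of its own, so the spread within a genotype, on which tests rest, may be partly technical. Map3k14 was measured at 0.553, 0.510, 0.585, 0.899 and 0.483 FPKM in NIKflox 1 to 5 and at 0.347, 0.361, 0.443, 0.389 and 0.373 FPKM in NIKhKO 1 to 5, so the ranges do not overlap. The same held for 2.2% of the genes tested. Map3k14 was not called by the quasi-likelihood test of edgeR (log2 change of NIKhKO against NIKflox -0.59, adjusted p 0.33). FPKM is a level scaled for gene length and sequencing depth. The tissue label fits the markers: 8 hepatocyte genes, Alb and Apoa1 among them, summed to between 38382.5 FPKM, in NIKflox 4, and 52891.1 FPKM, in NIKflox 1. The libraries held 47161869 to 65052525 estimated counts, with NIKflox 4 the deepest. In bulk tissue, fewer cells of a type and less RNA per cell cannot be told apart.

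Heart muscle cells contract through sarcomeres, in which thick filaments of myosin pull on thin filaments of actin. Troponin and tropomyosin on the thin filament make contraction depend on calcium, and titin spans the sarcomere as a spring. Heart muscle shares this plan with skeletal muscle, but uses its own isoforms of several proteins, and atria and ventricles differ in their myosin light chains. Hepatocytes have no sarcomeres.

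The promoters of muscle genes often hold a CArG box, the site of serum response factor, or a site of MEF2 factors. All 10 genes matched the RefSeq promoter table (GRCm38.p6), and each sequence is credited to it. In the 250 bases before annotated starts, a CArG box on either strand was found for 3 of the 10 genes and for 1.62% of the 27025 genes in the table, a gene being counted when any of its windows holds it; by window it was in 3 of 15 and in 1.47% of 32851. The stretches of 30 bases around these boxes are shown because 2 of the genes followed NIKflox 2 and NIKflox 4, while Myl7 did not. They run 5′ to 3′ on the gene's strand, with the box in capitals. For Actc1 the box lies 47 bases before the RefSeq start (chr2:114052903-114052932, minus strand) and for Myl3 85 bases before it (chr9:110763583-110763612, plus strand). For Myl7 it lies 61 bases before the start (chr11:5898824-5898853, minus strand). The windows of Actc1 and Myl3 lie inside the gene spans of the expression table, and each overlaps 1 annotated exon on the gene's strand. That of Myl7 lies before its gene.
Actc1: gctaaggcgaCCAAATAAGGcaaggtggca
Myl3: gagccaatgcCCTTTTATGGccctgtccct
Myl7: ccattcctctCCTTATTTGGgcctctgggt

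A MEF2 site was found for 1 of the 10 genes, Ttn, and for 3.42% of all genes (2.92% of windows), 166 bases before its start. The motif TATAAA, searched on both strands, was found for 1 gene, Myl2, in a window ahead of a RefSeq start that lies upstream of the gene start in the expression table; 14.3% of all genes (12.4% of windows) hold it. None of the 3 motifs was found before the starts of Csrp3, nor before those of Tnnt2, Tnni3, Myh6 and Mb, which followed the 2 libraries. Myl7, which did not follow them, holds a CArG box. Whether the motifs go with the levels was not tested. A match is a run of letters, not a measured site, and a window without one says only that these letters are not in it. The windows of Ttn (chr2:76982548-76982797, minus strand, MEF2 site in capitals) and Csrp3 (chr7:48848052-48848301, minus strand) are shown. Ttn followed the 2 libraries and Csrp3 did not.
Ttn: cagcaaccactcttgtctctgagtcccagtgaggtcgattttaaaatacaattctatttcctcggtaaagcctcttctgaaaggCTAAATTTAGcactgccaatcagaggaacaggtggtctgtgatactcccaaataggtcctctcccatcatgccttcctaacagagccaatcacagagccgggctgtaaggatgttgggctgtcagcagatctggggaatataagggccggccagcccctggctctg
Csrp3: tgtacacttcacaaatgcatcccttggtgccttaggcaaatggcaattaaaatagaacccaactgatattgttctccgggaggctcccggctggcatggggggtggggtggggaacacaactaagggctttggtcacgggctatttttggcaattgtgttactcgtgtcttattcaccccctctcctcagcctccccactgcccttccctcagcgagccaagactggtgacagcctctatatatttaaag

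Actc1 encodes cardiac alpha-actin, the main actin of the heart's thin filament (chr2:114047282-114053548, minus strand, GRCm38). It was at 2.90 FPKM in NIKflox 2, at 10.4 FPKM in NIKflox 4 and at 0 in NIKflox 1, 3 and 5 and in all 5 NIKhKO libraries. So 2 libraries of 1 genotype carry every count of the gene. Low counts in the table pile up at multiples of 4, so a count divided by 4 is used as an approximate number of read pairs, and by that measure Actc1 rests on 77.5 pairs in NIKflox 2 and 304 in NIKflox 4. A count of 0 allows up to 3 read pairs, and against the highest such limit among the other 8 libraries, NIKflox 2 was at least 20.4-fold higher and NIKflox 4 at least 73.5-fold higher. The NIKflox mean was 2.66 ± 4.51 FPKM (SD, n = 5), so the spread within the genotype exceeds its mean.

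The light chains Myl2 and Myl3 bind the neck of the ventricular myosin head. Myl2, the regulatory light chain (chr5:122100951-122113472, plus strand), was at 0.655 FPKM in NIKflox 2, at 4.77 FPKM in NIKflox 4 and at 0 in the other 8 libraries. Myl3, the essential light chain (chr9:110741861-110769798, plus strand), was at 0.361 FPKM in NIKflox 2, at 3.04 FPKM in NIKflox 4 and at 0 in the other 8. Both thus repeat the pattern of Actc1, with a wider gap between the 2 libraries. Against the limit that a count of 0 allows, Myl2 was at least 5.6-fold higher in NIKflox 2 and at least 40.7-fold higher in NIKflox 4. For Myl3 the bounds were 3.22-fold and 27.1-fold, and its level in NIKflox 2 rests on 12.5 read pairs. Actc1, Myl2 and Myl3 were the 3 genes of the 10 at 0 in all other libraries.

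Myh6 encodes alpha-myosin heavy chain, the motor protein of the adult mouse heart (chr14:54941921-54966641, minus strand). It was at 1.32 FPKM in NIKflox 2 and at 7.44 FPKM in NIKflox 4. NIKflox 3 and NIKflox 5 followed with 0.0352 and 0.0414 FPKM, NIKhKO 1, 2 and 3 were at 0.00398, 0.00368 and 0.00425 FPKM, and NIKflox 1, NIKhKO 4 and NIKhKO 5 were at 0. Myh6 had the most read pairs of the 10 genes in NIKflox 4, 903.2, and 147.2 in NIKflox 2. Of its transcript's stretches of 100 bases, 11.4% are also found in Myh7, the neighbouring slow myosin gene, so part of the reads could be split between them. Myh7 itself was at 0.251 FPKM in NIKflox 2, at 0.618 FPKM in NIKflox 4 and at 0 to 0.124 FPKM elsewhere.

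The thin filament's calcium switch is represented by Tnnt2, cardiac troponin T, which anchors troponin to tropomyosin (chr1:135836354-135852260, plus strand), and Tnni3, cardiac troponin I, the inhibitory subunit (chr7:4518305-4522794, minus strand). Tnnt2 was at 1.04 FPKM in NIKflox 2 and at 1.19 FPKM in NIKflox 4, while NIKflox 1, 3 and 5 were at 0.00758, 0.0372 and 0.0634 FPKM and NIKhKO 1 to 5 at 0.00718, 0.0148, 0.0145, 0.0782 and 0.0142 FPKM. Unlike the light chains, Tnnt2 was thus nearly level between the 2 high libraries. Tnni3 was at 0.618 FPKM in NIKflox 2 and at 1.77 FPKM in NIKflox 4. Its other libraries held 0, 0.05 and 0.0779 FPKM in NIKflox 1, 3 and 5 and 0.124, 0.145, 0.141, 0.0367 and 0.133 FPKM in NIKhKO 1 to 5. Outside the 2 high libraries, Tnni3 was higher in 4 of the 5 NIKhKO libraries than in NIKflox 1, 3 and 5, at levels near the limit of 3 read pairs.

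Ttn encodes titin, the giant spring protein of the sarcomere (chr2:76703980-76982547, minus strand). It was at 0.0205 FPKM in NIKflox 2, at 0.0389 FPKM in NIKflox 4 and between 0 and 0.00188 FPKM, the latter in NIKhKO 5, in the other 8 libraries. The low FPKM comes with 40.0 and 82.5 read pairs, because FPKM divides by the length of the gene. Mb encodes myoglobin, which binds oxygen in heart and red skeletal fibres (chr15:77015487-77050670, minus strand). It was at 2.82 FPKM in NIKflox 2, at 8.62 FPKM in NIKflox 4, at 0.0736 FPKM in NIKhKO 5 and at 0 in the other 7 libraries. Of the 100-base stretches of Mb's transcript, 30.7% are shared with the antisense gene Gm49540, and the labels do not state stranded counting, so reads of the pair cannot be told apart.

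**Figure D1:**
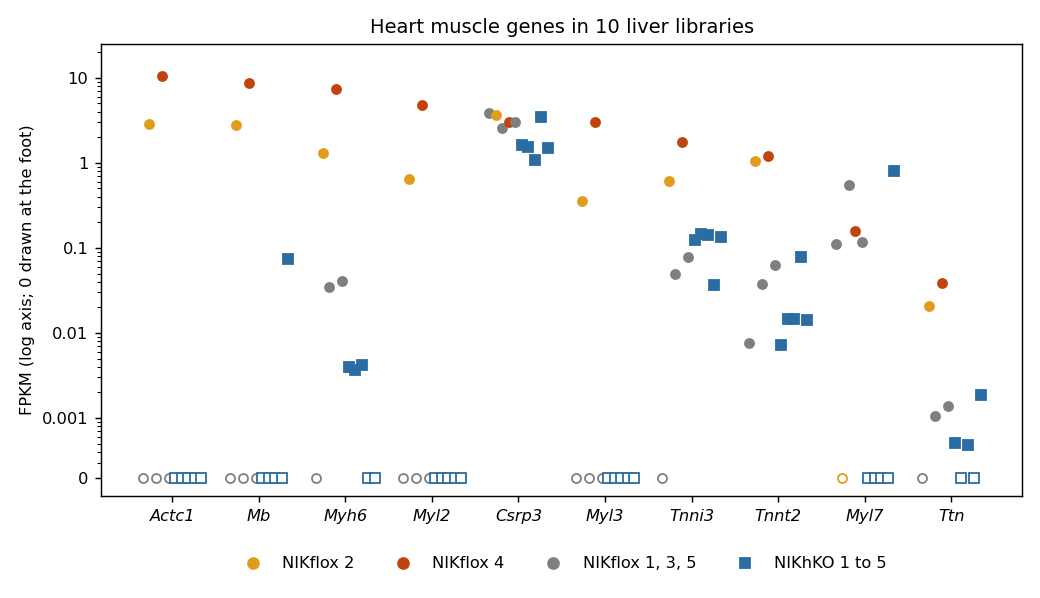
FPKM (log axis) of each of the 10 heart muscle genes in each library, with levels of 0 drawn as open marks at the foot of the plot. For 8 genes the points of NIKflox 2 and NIKflox 4 stand above all others, from 10.4 FPKM (Actc1, NIKflox 4) down to 0.0205 FPKM (Ttn, NIKflox 2), while Csrp3 lies between 1.09 and 3.90 FPKM in every library and Myl7 is highest in NIKhKO 5.

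Csrp3 encodes muscle LIM protein, a partner of the Z disc at which thin filaments are anchored (chr7:48830398-48848033, minus strand). Its levels were 3.90, 3.63, 2.58, 3.04 and 3.06 FPKM in NIKflox 1 to 5 and 1.63, 1.55, 1.09, 3.45 and 1.48 FPKM in NIKhKO 1 to 5. NIKflox 2 and NIKflox 4 did not stand out, and 4 of the 5 NIKhKO libraries lay below every NIKflox library, with NIKhKO 4 inside the NIKflox range. NIKflox averaged 3.24 ± 0.524 FPKM (SD, n = 5), and the NIKhKO average of 1.84 ± 0.924 FPKM (SD, n = 5) is 56.7% of it. In NIKflox 2 it had the highest level of the 10 genes, though its counting interval overlapped that of Actc1.

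Myl7, the regulatory light chain of atrial myosin (chr11:5896637-5898782, minus strand), was at 0.112, 0, 0.553, 0.159 and 0.116 FPKM in NIKflox 1 to 5. In NIKhKO it was at 0.811 FPKM in NIKhKO 5 and at 0 in the other 4 libraries. The highest value rests on 33 estimated counts and the next, in NIKflox 3, on 20; the 3 remaining libraries with a count hold 4 to 7, below the limit of 12 counts (3 read pairs). The genotypes overlap, with means of 0.188 ± 0.212 and 0.162 ± 0.363 FPKM (SD, n = 5 each).

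**Figure D2:**
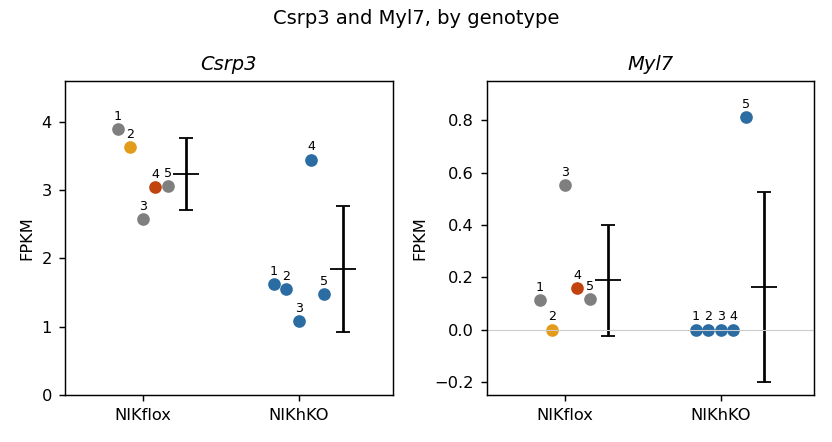
FPKM of Csrp3 and Myl7 in each library, numbered by replicate, with the mean and SD of each genotype (n = 5) beside the points; the SD bars of Myl7 reach below 0, where no level can lie. NIKhKO 4, at 3.45 FPKM, is the NIKhKO library that lies within the NIKflox range of Csrp3, and NIKflox 2 is at 0 for Myl7.

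Across all 10 genes, 8 had both NIKflox 2 and NIKflox 4 above the other 8 libraries, the pattern by which they were chosen; of the 27297 genes with a count in any library, 4.51% had it. The same 8 were highest in NIKflox 4, against 16.7% of those 27297 genes. None was highest in NIKflox 2, against 15.5%. The summed level of the 10 genes was 13.4 FPKM in NIKflox 2, 40.5 FPKM in NIKflox 4 and 1.25 to 4.02 FPKM in the other 8 libraries. With Csrp3 and Myl7 set aside, a split made after their values were seen, the sums were 9.74 FPKM in NIKflox 2, 37.3 FPKM in NIKflox 4 and 0.00758 to 0.223 FPKM elsewhere. As a share of all estimated counts, those 8 genes took 34.6 CPM in NIKflox 2 (95% Wilson interval 31.7 to 37.7) and 125.2 CPM in NIKflox 4 (119.9 to 130.7), against 0.0848 to 1.27 CPM elsewhere. Intervals and limits here come from read pairs and cover counting error only.

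The genotype comparison of the summed level rests largely on those 2 libraries, while that of Csrp3 does not. The NIKflox sum was 12.9 ± 16.0 FPKM and the NIKhKO sum 2.16 ± 0.906 FPKM (SD, n = 5 each), and NIKflox 1, 3 and 5, at 4.02, 3.25 and 3.37 FPKM, overlapped NIKhKO 4, at 3.56 FPKM. Without NIKflox 2 and NIKflox 4 the difference of NIKhKO minus NIKflox went from -10.7 to -1.39 FPKM. Csrp3 made up most of the sums outside these 2 libraries. It was at 3.90, 2.58 and 3.06 FPKM in NIKflox 1, 3 and 5 and at 3.45 FPKM in NIKhKO 4. Its log2 change was -0.76 with all libraries and -0.75 without NIKflox 2 and NIKflox 4. For none of the 10 genes did the ranges of the genotypes stand apart. They did for 2.2% of the genes in the test, so this is no result about the 10.

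Of the 10 genes, 5 reached the mean of 0.5 FPKM that the genotype test required: Csrp3, and Actc1, Myh6, Myl2 and Mb, which passed through NIKflox 2 and NIKflox 4 alone. The quasi-likelihood test of edgeR called 0 of these 5 at an adjusted p under 0.05, against 3 of the 12731 genes tested (0.0236%). With no minimum level, 0 of the 10 were called, and 0.011% of the genes. Without NIKflox 2 and NIKflox 4, 0 of the 5 were called, and 0.00785% of the genes, but Actc1 and Myl2 have no counts left there and could not be called. DESeq2 called 3 of them, Actc1, Myh6 and Myl2, as lower in NIKhKO, and 1.63% of all genes. These 3 were chosen for, and passed the minimum through, the same 2 libraries, so nothing is read from their calls. Csrp3 was called by edgeR once NIKhKO 4, the NIKhKO library inside its NIKflox range, was left out. It was then 1 of 24 genes called among 12731, with an adjusted p of 0.045. Its log2 change there was -1.13, against -0.76 (SE 0.28) with all libraries.

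Between the 2 high libraries, the genes did not keep 1 ratio. Myl3 was 8.42-fold higher in NIKflox 4 than in NIKflox 2 (95% exact binomial interval of the read pairs 4.63 to 16.8), Myl2 7.27-fold (4.61 to 12.1) and Myh6 5.64-fold (4.73 to 6.76). Actc1 was 3.59-fold higher (2.79 to 4.67), Mb 3.05-fold (2.33 to 4.05), Tnni3 2.86-fold (1.74 to 4.87) and Ttn 1.89-fold (1.28 to 2.84). Ventricular light chains and the motor thus lie at the upper end. The ratio of Tnnt2 was 1.15 (0.908 to 1.45) and that of Csrp3 0.836 (0.664 to 1.05), both with intervals that include 1 and lie below those of Myl2, Myl3, Myh6, Actc1 and Mb. The median ratio was 3.05 over 9 genes, Myl7 having no count in NIKflox 2.

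The order of the levels differed accordingly. In NIKflox 4 it ran from Actc1 at 10.4 FPKM (95% Poisson interval 9.27 to 11.7) through Mb at 8.62 FPKM (7.54 to 9.80) and Myh6 at 7.44 FPKM (6.96 to 7.94) to Myl2 at 4.77 FPKM (4.07 to 5.54). The intervals of Actc1 and Mb overlap, as do those of Mb and Myh6, while that of Myl2 is apart from both neighbours. Csrp3 and Myl3, each at 3.04 FPKM, came next, then Tnni3 and Tnnt2, whose intervals overlap, and Myl7 and Ttn, whose intervals overlap too. In NIKflox 2 Csrp3 led at 3.63 FPKM (3.09 to 4.24), ahead of Actc1 at 2.90 FPKM (2.29 to 3.62) and Mb at 2.82 FPKM (2.20 to 3.57), whose intervals overlap. Myh6, at 1.32 FPKM (1.12 to 1.55), is apart from Mb, and Tnnt2, Myl2, Tnni3 and Myl3 followed it, each overlapping its neighbour, with Ttn lowest of the genes that had a count.

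The other genes of the heart sarcomere held a weaker form of the pattern. Of 25 such genes, 18 had both NIKflox 2 and NIKflox 4 above the other 8 libraries, beside 4.51% of all genes with a count. The summed level of the 25 was 9.22 FPKM in NIKflox 2 and 19.1 FPKM in NIKflox 4, against 4.58 to 6.64 FPKM elsewhere. Mybpc3, cardiac myosin binding protein C, was at 0.101 FPKM in NIKflox 2, at 1.28 FPKM in NIKflox 4 and at most 0.0141 FPKM elsewhere. Tcap, the titin cap of the Z disc, was at 0.524 and 1.58 FPKM against at most 0.0659 FPKM, and Hspb7, a small heat shock protein of muscle, at 0.522 and 1.15 FPKM against 0. Tnnc1, the troponin C of heart and slow fibres, was at 4.00 FPKM in NIKflox 4, but at 0.726 FPKM in NIKflox 2 it lay within the 0.254 to 1.06 FPKM of the others. Tpm1, a tropomyosin also made outside muscle, was at 3.45 to 6.43 FPKM in all libraries. Of the 2 genes of this list in the edgeR test, 0 were called, nor any by DESeq2 or at an unadjusted p under 0.05, with a median log2 change of -0.34, beside -0.01 over all genes.

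Among 21 genes of heart calcium handling and channels, 9 had both libraries above the others, beside 4.51% of all genes with a count. Pln, phospholamban, which restrains the calcium pump, was at 0.235 FPKM in NIKflox 2, at 2.31 FPKM in NIKflox 4 and at most 0.0366 FPKM elsewhere. Hrc, a calcium-binding protein of the sarcoplasmic reticulum, was at 0.220 and 0.685 FPKM against at most 0.0731 FPKM. Atp2a2, the pump itself, which liver also expresses, was at 41.0 and 51.2 FPKM against 22.6 to 30.5 FPKM, so it stood on a high base level. Hcn4, the pacemaker channel, was at 0 in every library. The 1 gene of the list in the test, Atp2a2, was not called by edgeR or DESeq2.

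The energy genes of striated muscle shared the 2 libraries more evenly. Of 12 genes, 8 had both above the others, beside 4.51% of all genes with a count. The sums were 25.2 FPKM in NIKflox 2 and 30.2 FPKM in NIKflox 4 against 8.53 to 13.0 FPKM. Fabp3, the fatty acid binding protein of heart, was at 2.60 and 5.01 FPKM against at most 0.259 FPKM, and Ckmt2, the mitochondrial creatine kinase of striated muscle, at 0.679 and 1.5 FPKM against 0. Ckm, the cytosolic muscle creatine kinase, was at 1.53 FPKM in NIKflox 2 and 1.34 FPKM in NIKflox 4, a ratio of 0.876. Cox8b, a cytochrome oxidase subunit of heart and muscle, was at 3.05 and 1.86 FPKM, a ratio of 0.61. The 2 most abundant genes of the list did not have both libraries above the others. Hspb6 was at 6.06 FPKM in NIKflox 2 and 4.99 FPKM in NIKflox 4, against 3.3 to 5.67 FPKM elsewhere. Cox7a1 was at 3.8 and 5.5 FPKM there, against 1.43 to 6.14 FPKM elsewhere. Over the 35 genes of these 3 lists that were above the other 8 libraries in both, the median ratio of NIKflox 4 to NIKflox 2 was 1.46, from 0.461 for Alpk3, which rests on 26 and 13 estimated counts, to 12.7 for Mybpc3. Over all 12731 genes tested, edgeR gave 1273 an unadjusted p under 0.05, and 51.8% had a lower value in NIKhKO; the counts of the lists stand beside these. Of the 5 energy genes tested, 0 were called by edgeR (2 at an unadjusted p under 0.05) and 0 by DESeq2, with a median log2 change of -0.43. Cox8b and Fabp3 passed the minimum level through NIKflox 2 and NIKflox 4, with medians of 0 and 0.0395 FPKM over the other 8 libraries. Nothing is read from their folds.

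**Figure D3:**
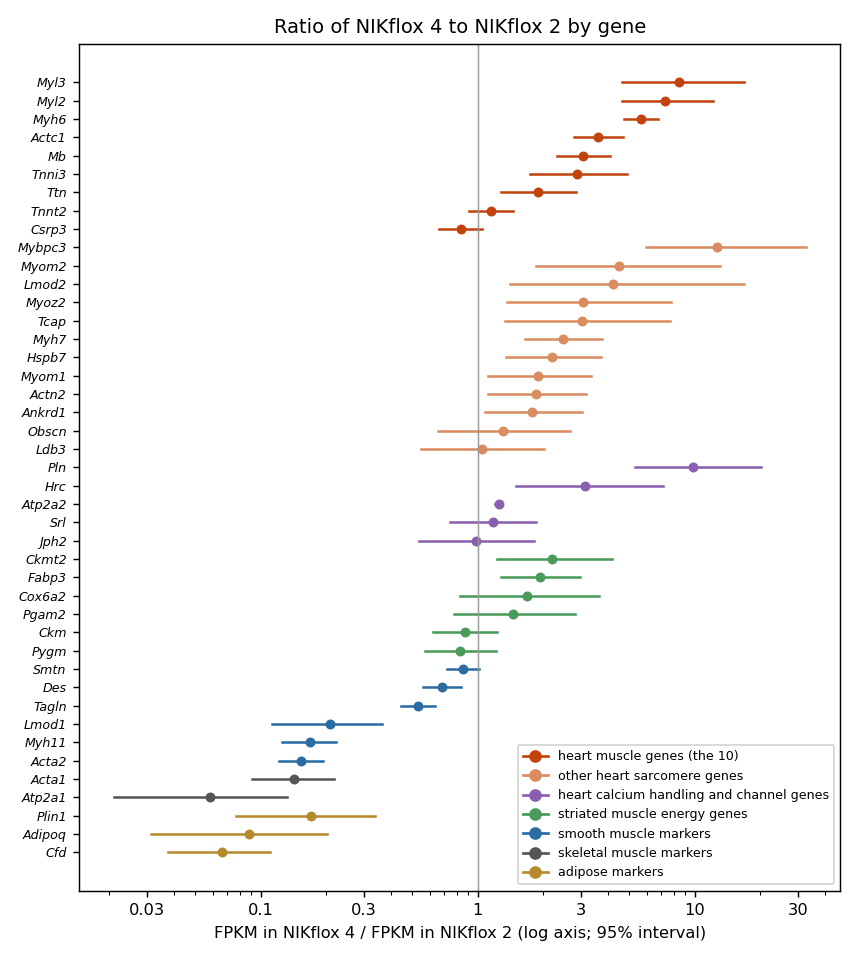
Ratio of FPKM in NIKflox 4 to FPKM in NIKflox 2 (log axis) with its 95% exact binomial interval, for heart, striated muscle, smooth muscle and adipose genes above the other 8 libraries in both and resting on at least 20 read pairs in 1 of them, with Csrp3, Acta1 and Atp2a1 added. Of the 10 heart muscle genes, the 9 with a ratio lie from 0.836 (Csrp3) to 8.42 (Myl3), while Acta1, at 0.143, and Adipoq, at 0.0885, lie far on the side of NIKflox 2.

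Of 14 hormone and transcription factor genes of the heart, 0 had both libraries above the others, which is near the 4.51% of all genes and no result about the list. Nppa, the atrial natriuretic peptide, was at 2.08 FPKM in NIKflox 4, at 0 in NIKflox 2 and at 0.0455 FPKM in NIKhKO 2. Nppb, the B-type peptide, had counts in NIKflox 4 alone, at 0.329 FPKM, and Irx4, a ventricular factor, was at 0 everywhere. Bmp10, a ligand of the atrium that liver also makes, was at 0.538 to 1.62 FPKM and Gata4, a factor shared by heart and liver, at 3.94 to 6.66 FPKM across all libraries. The 5 ventricular markers summed to 1.41 FPKM in NIKflox 2 and 8.48 FPKM in NIKflox 4 against 0.0481 to 0.220 FPKM elsewhere. Most of that sum is Myl2 and Myl3, at 4.77 and 3.04 FPKM in NIKflox 4, which were chosen for these libraries. Another ventricular marker, Hey2, was at 0.0547 FPKM in NIKflox 4, below its median of 0.101 FPKM over the other 8. The 7 atrial markers, Myl7 among them, were at 1.97 and 3.56 FPKM, with NIKflox 2 within the 0.873 to 2.30 FPKM of the others. The 2 sums are a description, and nothing is read from their contrast. Of the 4 hormone and factor genes tested, 0 were called by edgeR (1 at an unadjusted p under 0.05) and 0 by DESeq2, with a median log2 change of -0.40.

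Sums of skeletal muscle, smooth muscle, adipose and mesothelial markers were highest in NIKflox 2, and in NIKflox 4 the smooth muscle sum was also above the other 8 libraries. The 22 skeletal muscle markers summed to 20.8 FPKM in NIKflox 2, 2.81 FPKM in NIKflox 4, 4.19 FPKM in NIKhKO 5 and 0.905 to 3.67 FPKM in the rest. Of them, 17 were highest in NIKflox 2, beside 15.5% of all genes with a count. Acta1, skeletal alpha-actin, was at 6.67 FPKM in NIKflox 2 against 0.953 FPKM in NIKflox 4, and Tnnc2, the troponin C of fast fibres, at 2.66 FPKM against 0. The sums of the 10 heart genes and of the other heart sarcomere genes were thus larger in NIKflox 4, and the skeletal sum in NIKflox 2. Not every heart gene followed, with ratios of NIKflox 4 to NIKflox 2 of 1.15 for Tnnt2 and 0.836 for Csrp3. Among other skeletal markers, Tnnt3 was at 0 and Atp2a1 at 0.102 FPKM in NIKflox 4, against 1.57 and 1.73 FPKM in NIKflox 2. Over the libraries other than NIKflox 2 and NIKflox 4, Acta1 had a median of 0.0563 FPKM and Atp2a1 of 0.0199 FPKM. Both were above these medians in NIKflox 4. They stayed below the highest of those libraries, at 1.04 and 0.484 FPKM. Mb, Ckm and Cox8b are made by both kinds of muscle. Of the 3 skeletal markers tested, 0 were called by edgeR (2 at an unadjusted p under 0.05) and 0 by DESeq2, with a median log2 change of -1.13. Acta1 passed the minimum level through NIKflox 2, with a median of 0.0563 FPKM over the libraries other than NIKflox 2 and NIKflox 4. Nothing is read from its fold.

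The 12 smooth muscle markers summed to 48.4 FPKM in NIKflox 2 and 22.1 FPKM in NIKflox 4 against 11.9 to 16.0 FPKM, with Acta2, the smooth muscle actin, at 14.6 and 2.25 FPKM against 0.699 to 1.29 FPKM. The 11 adipose markers summed to 31.3 FPKM in NIKflox 2, 7.65 FPKM in NIKflox 4, 8.32 FPKM in NIKhKO 5 and 4.11 to 5.85 FPKM in the rest. Cfd, the fat cell protease adipsin, was at 14.4 FPKM in NIKflox 2 and 0.956 FPKM in NIKflox 4, and Ucp1, the uncoupling protein of brown fat, at 1.69 FPKM in NIKflox 2 and 1.32 FPKM in NIKhKO 5. The 9 mesothelial markers summed to 5.64 FPKM in NIKflox 2, 4.41 FPKM in NIKhKO 5, 3.09 FPKM in NIKflox 4 and 0.830 to 2.26 FPKM in the rest. The part of these tissues in the levels of the heart genes was not tested. Markers of lung, pancreas, intestine and kidney did not have both libraries above the others in their sums. The lung marker Sftpc was at 1.57 FPKM in NIKflox 1 and 0.792 FPKM in NIKhKO 4, and Scgb1a1 at 0.92 and 0.68 FPKM. Both were at 0 in NIKflox 2 and NIKflox 4. Of the 6 smooth muscle markers tested, edgeR called 0 (5 at an unadjusted p under 0.05, beside 1273 of 12731 genes, and all 6 with a lower value in NIKhKO, beside 51.8%, median log2 change -0.58) and DESeq2 0. Of the 12 smooth muscle markers, 11 were highest in NIKflox 2, beside 15.5% of the genes with a count in any of the 10 libraries, that is, of all libraries including NIKflox 2 and NIKflox 4. How far the lower NIKhKO values rest on NIKflox 2 was not tested. Of the 4 adipose markers both called 0 (0 at an unadjusted p under 0.05, median -0.45). Among them, Cfd passed the minimum level through NIKflox 2, with at most 0.724 FPKM in the 8 libraries other than NIKflox 2 and NIKflox 4, so nothing is read from its fold. The 1 mesothelial marker tested, Krt19, which bile duct cells also express, was called by DESeq2 and not by edgeR, with a log2 change of -1.12.

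**Figure D4:**
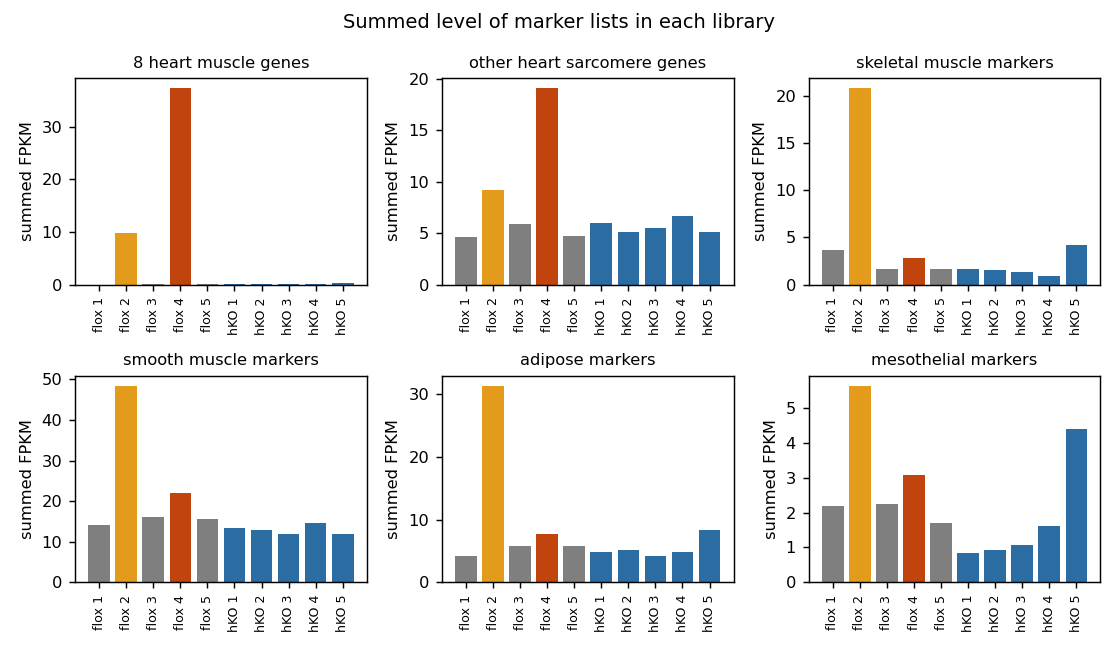
Summed FPKM of 6 gene lists in each library (bars start at 0; each panel has its own scale). The 8 heart muscle genes without Csrp3 and Myl7 and the other heart sarcomere genes are highest in NIKflox 4, at 37.3 and 19.1 FPKM, while skeletal muscle, smooth muscle, adipose and mesothelial markers are highest in NIKflox 2, at 20.8, 48.4, 31.3 and 5.64 FPKM.

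The genes whose profile over the 10 libraries was most like that of the heart genes were ranked by Pearson's r with the mean log2(FPKM + 0.1) of the 10 genes, among 10295 genes that reached 1 FPKM in a library. The first 20 had r from 0.992 (Tcap) to 0.908 (Copa), and all 20 were highest in NIKflox 4 and second in NIKflox 2. Of them, 7 are on the heart, energy and calcium lists: Tcap, Hspb7, Ckmt2, Pln, Mybpc3, Fabp3 and Atp2a2. The other 13 are on none of the lists used here. Fgf21, a stress hormone of liver, was at 16.4 FPKM in NIKflox 2, at 18.1 FPKM in NIKflox 4 and at 2.47 to 4.42 FPKM elsewhere. Psat1, an enzyme of serine synthesis, was at 0.656 and 2.43 FPKM against 0.132 to 0.318 FPKM. Hyou1, a chaperone of the endoplasmic reticulum, was at 16.3 and 23.6 FPKM against 7.35 to 12.5 FPKM. Dmbt1, a secreted scavenger receptor protein of epithelia, was at 1.68 and 2.28 FPKM against 0 to 0.0122 FPKM. The rest, Eif3l, C2cd2l, Hnrnph2, Zw10, Tmem214, Vps37c, Ddost, Clptm1l and Copa, differed less between the libraries. These correlations are over 10 libraries, the same for every gene, and they follow 2 of the points: without NIKflox 4, 2 of the 20 genes were again among the first 20, and without NIKflox 2, 10.

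**Figure D5:**
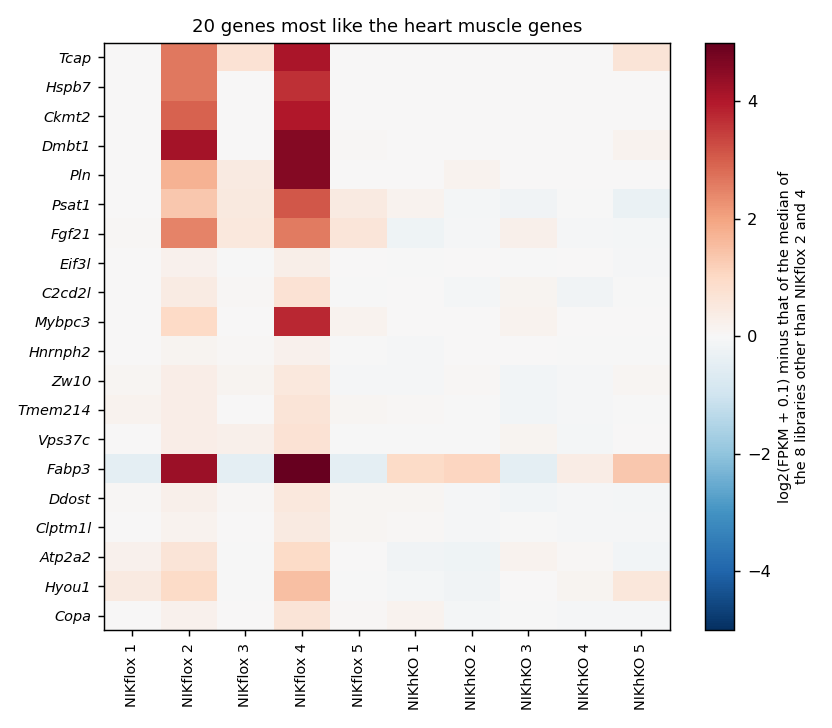
Heat map of the 20 genes most like the heart muscle genes (rows, from r = 0.992 for Tcap at the top to 0.908 for Copa) in the 10 libraries; colour is log2(FPKM + 0.1) minus that of the median of the 8 libraries other than NIKflox 2 and NIKflox 4. The scale ends at 5, which Fabp3 passes in NIKflox 4; NIKflox 2 and NIKflox 4 are above that median in every row, by least in Hnrnph2.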

How the data were processed

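Liver RNA of 10 libraries was captured with oligo-dT beads, per the labels' protocols. Reads were processed with cutadapt 1.9, HISAT2 2.0.4, StringTie 1.3.4d and edgeR, per the submitters' processing notes, which name hg38; the deposited gene IDs and positions are mouse, and 8 of the 10 genes have the start and end of the GENCODE M21 annotation (GRCm38). The authors deposited FPKM and whole-number estimated counts per gene; a count of 0 is listed at 0.0001 FPKM and was taken as 0. Low counts pile up at multiples of 4 (on average 907.0 genes at 4, 330.5 at 3 and 175.8 at 5), so counts divided by 4 stand for read pairs.

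Genotypes were compared with edgeR 4.0.16 (TMM, quasi-likelihood test, Benjamini-Hochberg adjustment) in genes of mean FPKM 0.5 or more, checked on simulated data. Map3k14, at a mean of 0.494 FPKM, was kept in the comparison as an exception. The alternatives included DESeq2 1.42.0 and limma 3.58.1 on log2(FPKM + 1). The genes to name were the 10, Map3k14 and the 20 most like them. In each list they were the called genes, up to 4 whose highest library was at least 5 times the median, and the 2 most abundant. Not every gene that this list rule gives is named. Hcn4, Irx4, Nppb, Hey2 and Alpk3 lie outside the rule and were named after their values were seen. The 10 genes and the lists were chosen with earlier results of these data known. With the mean of its genotype taken from each gene, same-numbered libraries correlated at -0.316 to 0.03. The numbers were therefore not used as pairs in the main test, though a pairing is not excluded.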

Additional observations from a re-analysis of the deposited data

Results flagged for a closer look

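In 56 sets of 5 libraries of 1 genotype, 21 had a library whose gap to its nearest neighbour exceeded Dixon's limit of 0.71 of the range; chance flags about 1 in 20. The 10 genes, and the sums that hold them, were chosen for standing out in NIKflox 2 and NIKflox 4, and a set with 4 libraries at 0 passes whenever the fifth has a count, so the number is not to be read against chance and the values are a description. In NIKflox 4, far above the other NIKflox libraries, lay Actc1 at 10.4 FPKM, Myh6 at 7.44 FPKM, Myl2 at 4.77 FPKM, Myl3 at 3.04 FPKM and Map3k14 at 0.899 FPKM. The summed level of the 10 heart muscle genes, 40.5 FPKM, and of the ventricular markers, 8.48 FPKM, stood apart there too.

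NIKflox 2 stood apart in the sums of skeletal muscle markers, 20.8 FPKM, smooth muscle markers, 48.4 FPKM, and adipose markers, 31.3 FPKM. Myl7 stood apart at 0.553 FPKM in NIKflox 3, and the red blood cell markers were low in NIKflox 5, at 406.2 FPKM.

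Among NIKhKO libraries, NIKhKO 5 was high for Myl7 (0.811 FPKM), Ttn (0.00188 FPKM) and Mb (0.0736 FPKM), and for the sums of skeletal muscle markers (4.19 FPKM), adipose markers (8.32 FPKM) and mesothelial markers (4.41 FPKM). NIKhKO 4 was high for Csrp3 (3.45 FPKM) and Tnnt2 (0.0782 FPKM) and low for Tnni3 (0.0367 FPKM).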

How the results depend on the processing

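With edgeR, 3 genes were called between genotypes (1273 at an unadjusted p under 0.05). DESeq2 called 207, limma on log2(FPKM + 1) 0 (1385 at an unadjusted p under 0.05), and edgeR without NIKflox 2 and NIKflox 4 called 1; leaving out 1 library gave 0 to 24, the latter without NIKhKO 4. The heart muscle genes had 0 calls, 3 with DESeq2 (Actc1, Myh6 and Myl2), and 0 to 1 with a library left out, the 1 being Csrp3 without NIKhKO 4. The log2 change of Mb was -6.90 and reversed to 3.75 without NIKflox 2 and NIKflox 4, where it rests on 8 counts in NIKhKO 5. Of the 20 genes most like the heart muscle genes, 4 were again among the first 20 with no minimum level, 15 with a pseudocount of 1, and 2 (without NIKflox 4) to 10 (without NIKflox 2) with a library left out. The difference of the summed level, -10.7 FPKM, ranged from -3.84 without NIKflox 4 to -13.1 FPKM with 1 library left out and was -1.39 FPKM without both high libraries. The median ratio of NIKflox 4 to NIKflox 2 was 2.81 in TMM-scaled CPM, against 3.05. The replicate block gave 2 called genes, 0 of them heart muscle genes. With the mean of its genotype taken from each gene, same-numbered libraries correlated at -0.316 to 0.03 and none best with its own number. Levels under about 3 read pairs, as for most of Myl7, cannot be ordered at this depth.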
